A study of Rattus norvegicus with 6 samples.

Results

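The genes described here encode the proteins that carry a cell through G2 and mitosis. They were given by name as 40 gene symbols, and 36 of the 40 are among the 17337 gene names of the mRNA-sequencing tables. The rule itself uses no measured value, but the members were chosen with earlier results of these data known. *Cenpe*, *Ncapg*, *Ncaph* and *Anln* were not analysed here. The cells were untreated cortical neural progenitors of Sprague Dawley rats, from embryos of either sex taken at embryonic day 14. They were grown in medium with bFGF and EGF, growth factors that keep progenitors dividing, and collected after a second passage. There were 2 biological replicates of the cells, A and B, and from each of them 2 technical libraries of polyA-selected mRNA were sequenced (A1 and A2, B1 and B2). The number of embryos behind each culture is not given in the sources used here.

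Entry into mitosis is driven by the kinase CDK1 once it is bound to a B-type cyclin and freed of inhibitory phosphate by CDC25 phosphatases. Aurora and Polo-like kinases then build the spindle, the checkpoint holds the cell until every kinetochore is attached, and the anaphase-promoting complex ends mitosis by marking cyclin B and securin for degradation. In the developing cortex, radial glia go through these steps at the surface of the ventricle, and the genes are used widely as marks of cycling progenitors.

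Levels are given in FPKM, fragments scaled to transcript length and sequencing depth, and can therefore be compared between genes. Means and SD are over the 2 biological replicates after the technical libraries of each had been averaged. Differences between replicates are B minus A of log2(FPKM + 1), a scale on which low genes appear to change less than they do. With 1 condition and 1 culture on each side of that difference, no test was possible and none is given. Depth was read as coverage per FPKM, which was 22.7 to 24.4 in A1, A2 and B1 and 6.83 in B2. Replicate B also stood apart in cell type markers: mesenchymal and meningeal genes were higher in B and several radial glia genes were lower.

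Many G2 and mitosis genes share promoter elements. Through the CHR, a short element bound by the DREAM and MuvB complexes, such genes are repressed in resting cells and activated in G2, and the CCAAT box binds the trimeric factor NF-Y. RefSeq promoters of build GRCr8 were at hand for 34 of the 40 genes, and the 250 bases before each start were searched on both strands for the CHR as TTTGAA or TTTAAA and for the CCAAT box as CCAAT. The table holds no entry for *Ccna2*, *Tpx2*, *Incenp*, *Aurkb*, *Ube2c* and *Racgap1*. A CHR was present in 24 of the 34 promoters (70.6%), against 25.4% of all 33469 promoters in the table and 16.2% of the 8379 promoters of expressed genes (mean FPKM 1 or higher). At least 2 CCAAT boxes were present in 17 of 34 (50%), against 9.42% of all promoters and 13.1% of those of expressed genes. Both features together were found in 14 of 34 (41.2%), in 2.32% of all promoters and in 2.14% of those of expressed genes. These shares describe letters in a window and were not tested.

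The promoters of *Cdk1*, *Cdc20*, *Cdca8* and *Pttg1* are shown because these are the members with the highest mRNA levels that hold a CHR and at least 2 CCAAT boxes. *Bub3* was added after its values were seen, as the member with the highest level, with a promoter that has CCAAT boxes and no CHR and with a level that differed little between replicates. Each sequence runs 5′ to 3′ and ends at the base before the start, and capitals mark the motifs as they read on the printed strand, so that TTCAAA is a reversed TTTGAA and ATTGG a reversed CCAAT. In GRCr8 they lie at chr20:19265043-19265292 on the plus strand for *Cdk1*, chr5:137255800-137256049 on the minus strand for *Cdc20*, chr5:142483200-142483449 on the minus strand for *Cdca8*, chr10:28406327-28406576 on the minus strand for *Pttg1* and chr1:195760282-195760531 on the plus strand for *Bub3*.

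Cdk1: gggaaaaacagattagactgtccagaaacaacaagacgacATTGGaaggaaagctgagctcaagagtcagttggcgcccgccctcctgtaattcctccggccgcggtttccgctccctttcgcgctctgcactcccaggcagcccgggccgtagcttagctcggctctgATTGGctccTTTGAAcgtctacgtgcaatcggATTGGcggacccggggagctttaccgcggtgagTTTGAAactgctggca
Cdc20: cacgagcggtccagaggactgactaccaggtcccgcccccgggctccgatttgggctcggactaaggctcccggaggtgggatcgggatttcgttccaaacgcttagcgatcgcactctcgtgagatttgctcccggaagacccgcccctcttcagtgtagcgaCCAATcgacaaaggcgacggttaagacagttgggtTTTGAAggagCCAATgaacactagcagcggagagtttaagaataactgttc
Cdca8: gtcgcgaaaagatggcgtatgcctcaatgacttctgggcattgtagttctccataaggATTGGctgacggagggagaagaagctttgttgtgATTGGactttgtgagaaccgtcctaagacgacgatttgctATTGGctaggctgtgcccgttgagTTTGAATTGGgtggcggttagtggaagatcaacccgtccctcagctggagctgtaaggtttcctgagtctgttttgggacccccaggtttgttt
Pttg1: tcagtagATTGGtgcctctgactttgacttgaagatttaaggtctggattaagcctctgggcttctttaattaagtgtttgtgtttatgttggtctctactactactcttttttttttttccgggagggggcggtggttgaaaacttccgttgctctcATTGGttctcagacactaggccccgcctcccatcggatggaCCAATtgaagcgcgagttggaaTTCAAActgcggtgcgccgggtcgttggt
Bub3: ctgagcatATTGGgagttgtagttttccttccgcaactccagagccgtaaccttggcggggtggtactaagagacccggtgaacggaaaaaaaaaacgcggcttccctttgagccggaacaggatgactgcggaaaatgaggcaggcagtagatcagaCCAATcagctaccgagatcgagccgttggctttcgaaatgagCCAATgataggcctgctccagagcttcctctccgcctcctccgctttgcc

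*Cdk1* had 2 CHR matches and 3 CCAAT boxes in this window, *Cdc20* had 1 and 2, *Cdca8* 1 and 4, and *Pttg1* 1 and 3, while *Bub3* had 0 and 3. In *Cdca8* a CHR and a CCAAT box share 1 base, which makes a single run of capitals. Of the 32 CHR matches in the 34 promoters, 25 began within the last 100 bases before the start, and the CCAAT boxes were spread more widely, with 28 of 58 in those bases. No positions are given for other promoters, so these counts do not set the G2 and mitosis genes apart. In a list of 71 other G2 and mitosis genes, 32 of 64 promoters (50%) held a CHR and 16 (25%) held both features. DNA replication genes, which peak earlier in the cycle, had a CHR in 5 of 30 promoters (16.7%) and both features in 0 of 30, although 9 of 30 had at least 2 CCAAT boxes. The shares of expressed genes were 16.2% with a CHR, 2.14% with both and 13.1% with at least 2 CCAAT boxes. In the remaining gene lists the CHR share ran from 16.7% (anaphase-promoting complex, 2 of 12) to 50% (microglia and endothelial markers, 3 of 6).

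**Figure D1:**
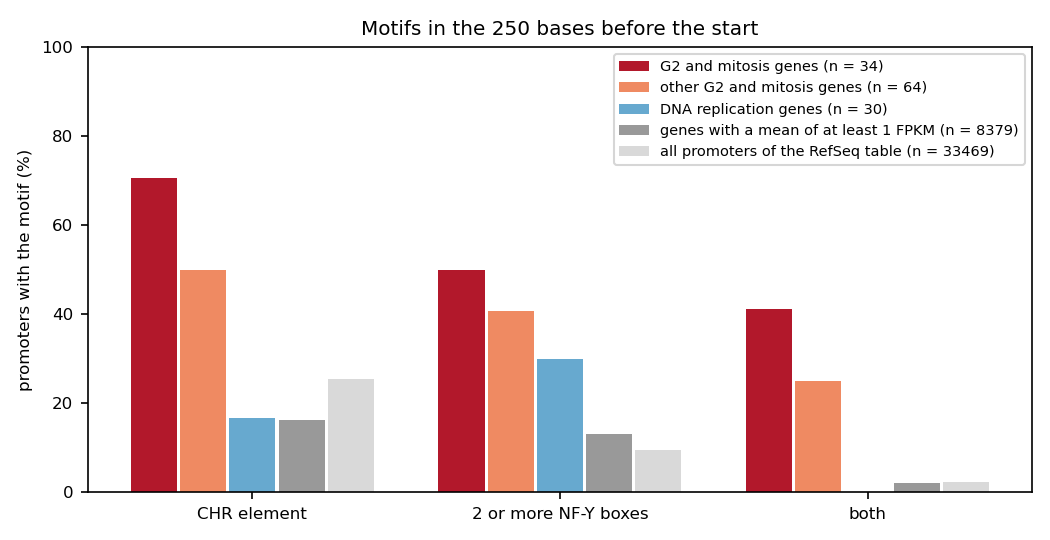
Share of promoters, in percent, with a CHR element, with at least 2 CCAAT boxes (NF-Y boxes) and with both, in the 250 bases before the start, for 34 G2 and mitosis genes, 2 comparison lists, expressed genes (mean FPKM 1 or higher) and all promoters of the RefSeq table. The G2 and mitosis genes have the tallest bar in each set, 70.6%, 50% and 41.2%.

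All 36 listed members had a mean FPKM of 1 or higher. Their median was 11.6 FPKM, and their means spanned a 50.7-fold range from 1.64 FPKM for *Cdc25c* to 83.0 FPKM for *Bub3*. At least 10 FPKM was reached by 21 of the 36, against 38.3% of all gene names and 63.3% of the 10481 genes with a mean FPKM of 1 or higher. The median percentile of the members was 64.1 among all names and 40.6 among those expressed genes. The order of the members was close to the same in every library, with a Spearman correlation of 0.959 to 0.992 over the 36 genes for the 6 pairs of libraries, of which A1 with A2 and B1 with B2 share their source. Neighbours in that order were often not resolved: of 35 neighbouring pairs, 17 had the same order in A and B and 8 had it in every library.

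**Figure D2:**
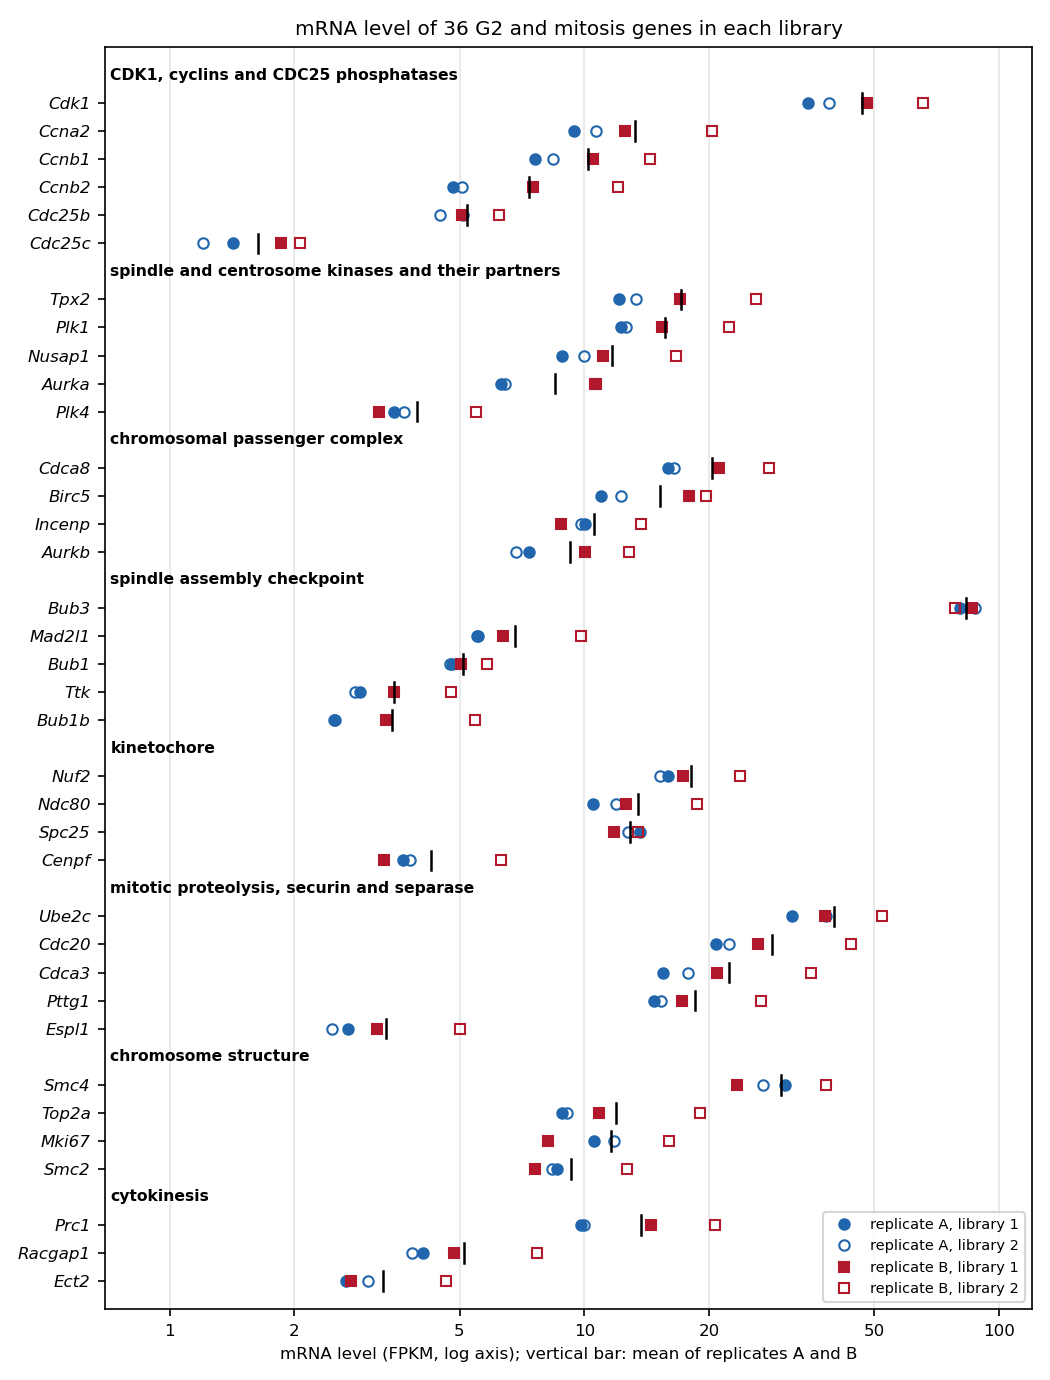
FPKM on a log axis of the 36 G2 and mitosis genes in libraries A1 and A2 (circles) and B1 and B2 (squares), by role, with a bar at the mean of replicates A and B. *Bub3* (mean 83.0 FPKM) and *Cdk1* (46.8 FPKM) lie farthest to the right, and the open square of library B2 is the rightmost symbol of most genes.

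*Cdk1*, the kinase at the centre of mitotic entry, lies on chromosome 20 of rn6 (chr20:20576377-20591509, plus strand) and was the most abundant of the 6 genes of its group. In replicate A its libraries gave 34.7 and 38.9 FPKM, and in replicate B 48.1 and 65.6 FPKM. Both libraries of B were above both libraries of A, and the mean was 46.8 ± 14.2 FPKM (SD, n = 2). *Cdc25c* (chr18:27529860-27550302, minus strand), a phosphatase that activates CDK1, had the lowest level of all members, 1.42, 1.21, 1.86 and 2.06 FPKM in A1, A2, B1 and B2. Its mean was 1.64 ± 0.458 FPKM (SD, n = 2), and its coverage of 14.1 in B2 was the lowest of any member. *Cdc25b*, the CDC25 form that acts first at the centrosome, was higher at 5.22 ± 0.599 FPKM, so that *Cdc25c* stood at 0.310 ± 0.0520 (SD, n = 2) of it.

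Among the cyclins, *Ccna2*, which pairs with CDK2 and then with CDK1, had 13.2 ± 4.48 FPKM and *Ccnb1* had 10.2 ± 3.14 FPKM. The ratio of *Ccna2* to *Ccnb1* was 1.29 ± 0.0436 (SD, n = 2), but the libraries of B alone gave 1.19 and 1.41. *Ccnb2* had 7.37 ± 3.42 FPKM, and its libraries read 4.83 and 5.06 in A and 7.52 and 12.05 in B. This value carries a doubt about its locus. The tables place *Ccnb2* at chr1:21145356-21146846 of rn6, a span of 1491 bases inside *Akap7* on the other strand, whereas the RefSeq promoter of *Ccnb2* in GRCr8 is on chromosome 8. For the other 29 listed members with a promoter entry, the chromosome was the same in both.

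Of the spindle and centrosome group, *Tpx2*, which targets and activates Aurora A on the spindle, was highest, with 12.1 and 13.3 FPKM in A1 and A2 and 17.03 and 25.9 FPKM in B1 and B2. *Plk4*, the kinase that starts centriole duplication, was lowest at 3.47, 3.68, 3.19 and 5.48 FPKM in A1, A2, B1 and B2. Its B1 value was below both A libraries and its B2 value above them. *Plk1*, the main Polo-like kinase of mitosis, had 15.7 ± 4.55 FPKM, and *Plk4* stood at 0.259 ± 0.0410 (SD, n = 2) of it. *Nusap1*, a microtubule-bundling protein, had 11.6 ± 3.17 FPKM. *Aurka*, which encodes Aurora A, had 8.51 ± 3.02 FPKM and was the member whose libraries within a replicate lay closest, at 6.30 and 6.44 FPKM in A and 10.6 and 10.7 FPKM in B.

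The chromosomal passenger complex corrects faulty attachments at the centromere and later acts at the midbody. *Cdca8*, which encodes its subunit borealin, was highest at 15.9, 16.5, 21.1 and 27.9 FPKM in A1, A2, B1 and B2. *Aurkb*, its kinase, was lowest at 7.36, 6.84, 10.01 and 12.8 FPKM. *Birc5* (survivin) had 15.2 ± 5.08 FPKM and *Incenp*, the scaffold, 10.6 ± 0.918 FPKM. Relative to *Aurkb*, *Birc5* was at 1.64 ± 0.00949 and *Cdca8* at 2.22 ± 0.0922 (SD, n = 2). Single libraries spread more widely, from 1.49 to 1.79 for *Birc5* and from 2.11 to 2.41 for *Cdca8*. The ratio of B to A was 1.61 for *Aurkb*, 1.62 for *Birc5* and 1.51 for *Cdca8*. *Incenp* was at 1.397 of *Aurkb* in A and 0.984 in B, with no overlap between libraries. *Incenp* overlaps *Fads2* on the same strand of rn6, and reads of the shared stretch cannot be assigned with certainty to either. The ratio of the Aurora kinases, *Aurka* over *Aurkb*, was 0.915 ± 0.0256, and 0.834 to 1.06 in single libraries.

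In the spindle assembly checkpoint, *Bub3* stood far above its partners. It spans chr1:203526853-203537456 of rn6 on the plus strand and had 80.4, 87.3, 85.9 and 78.3 FPKM in A1, A2, B1 and B2, and its libraries of A and B overlapped. *Bub3* binds both BUB1 and BUBR1 and delivers them to kinetochores, and its level was 16.3 ± 1.77 times that of *Bub1* (SD, n = 2). *Bub1b*, which encodes BUBR1, was lowest at 2.49, 2.51, 3.32 and 5.46 FPKM, and its ratio to *Bub1* was 0.524 in A and 0.807 in B with no overlap between libraries. The other members were *Mad2l1* (6.801 ± 1.82 FPKM), the inhibitor of CDC20, *Bub1* (5.11 ± 0.474 FPKM), a kinetochore kinase, and *Ttk* (3.48 ± 0.903 FPKM), the MPS1 kinase that starts the signal.

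The kinetochore genes *Ndc80*, *Nuf2* and *Spc25* encode parts of the 4-subunit NDC80 complex that grips microtubules. *Nuf2* was highest, with 15.9 and 15.2 FPKM in A and 17.3 and 23.7 FPKM in B, and *Ndc80* had 13.4 ± 3.14 FPKM. *Nuf2* stood at 1.35 ± 0.0563 of *Ndc80* (SD, n = 2), and at 1.27 to 1.51 in single libraries. *Spc25* had nearly the same level as *Ndc80* on average, 12.9 ± 0.377 FPKM, but the ratio was 1.17 in A and 0.807 in B. It was the member with the lowest difference between B and A, and its libraries overlapped. *Cenpf*, a large protein of the outer kinetochore, was lowest at 3.66, 3.80, 3.28 and 6.30 FPKM in A1, A2, B1 and B2, so that B2 alone stood above the other libraries.

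The proteolysis group held several of the most abundant members. *Ube2c*, the ubiquitin-conjugating enzyme of the anaphase-promoting complex, had 31.6, 38.3, 38.0 and 52.2 FPKM in A1, A2, B1 and B2, a mean of 40.04 ± 7.17 FPKM. *Cdc20*, the activator of that complex in mitosis, had 20.7 and 22.3 FPKM in A and 26.3 and 44.1 FPKM in B. Its B2 value was well apart from the other libraries. *Cdca3*, which acts in the degradation of the CDK1 inhibitor WEE1, had 15.4 and 17.8 FPKM in A and 20.9 and 35.1 FPKM in B. *Pttg1* (securin), the inhibitor of separase, had 18.5 ± 4.87 FPKM. *Espl1* (separase), the protease that cuts cohesin, was lowest at 2.69, 2.47, 3.17 and 5.01 FPKM, and securin mRNA was 5.59 ± 0.337 times separase mRNA (SD, n = 2).

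Among the genes of chromosome structure, *Smc4* was highest and *Smc2* lowest, although their products form the core of condensin as a pair. *Smc4* had 30.5, 27.0, 23.3 and 38.3 FPKM in A1, A2, B1 and B2, and *Smc2* had 8.58, 8.34, 7.59 and 12.6 FPKM. B1 was below both A libraries and B2 above them for each gene, and their ratio was 3.22 ± 0.251 (SD, n = 2). *Smc4* holds the microRNA genes *Mir15b* and *Mir16* within its span on the same strand. *Top2a*, the topoisomerase that untangles sister DNA (chr10:86901467-86930949 of rn6, minus strand), had 8.84 and 9.09 FPKM in A and 10.9 and 19.0 FPKM in B. *Mki67*, which coats mitotic chromosomes and encodes the Ki-67 antigen (chr1:207993895-208020454 of rn6, minus strand), had 10.5, 11.8, 8.17 and 15.97 FPKM in A1, A2, B1 and B2. The lowest and the highest value of *Mki67* were thus the 2 technical libraries of replicate B.

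Of the cytokinesis genes, *Prc1*, which bundles the microtubules of the central spindle, was highest at 9.81 and 9.95 FPKM in A and 14.5 and 20.6 FPKM in B. *Ect2*, which activates RhoA at the cell equator, was lowest at 2.66, 3.01, 2.74 and 4.65 FPKM in A1, A2, B1 and B2. *Racgap1*, the partner that brings ECT2 to the central spindle, had 5.12 ± 1.64 FPKM. *Prc1* and *Racgap1* did not overlap between A and B, and *Ect2* did.

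The members were then compared between the biological replicates. Both libraries of B were above both libraries of A for 25 of the 36 genes, against 28.1% of the 10481 expressed genes (mean FPKM 1 or higher). The opposite held for 0 of 36, against 32.0% of those genes. The median difference of the members was 0.51, with quartiles of 0.28 and 0.63, and the median over all 10481 genes was -0.03. In linear terms the median ratio of B to A was 1.48, and single members ranged from 0.960 for *Spc25* to 1.98 for *Ccnb2*. A larger share of dividing cells and more of each mRNA per dividing cell cannot be told apart in bulk samples. None of the 36 was at least 1 higher in B with no overlap, against 4.78% of the 10481 genes, and none was at least 1 higher in A, against 1.42%. At a difference of 0.58, 12 of 36 were higher in B without overlap, against 9.51% of the 10481 genes. These values lean on library B2. Without B2 the median difference was 0.22, with 25 members above both A libraries, against 40.3% of all genes in that setting, and 7 below both, against 43.8%. Without B1 the median was 0.72 and 34 members were above both A libraries, against 40.7% of all genes, and 4 of them by at least 1, against 6.35%. Other markers moved with this difference: the median B minus A was 1.95 for 16 mesenchymal and meningeal markers and -0.37 for 14 radial glia and progenitor markers, and their part in the result was not tested.

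**Figure D3:**
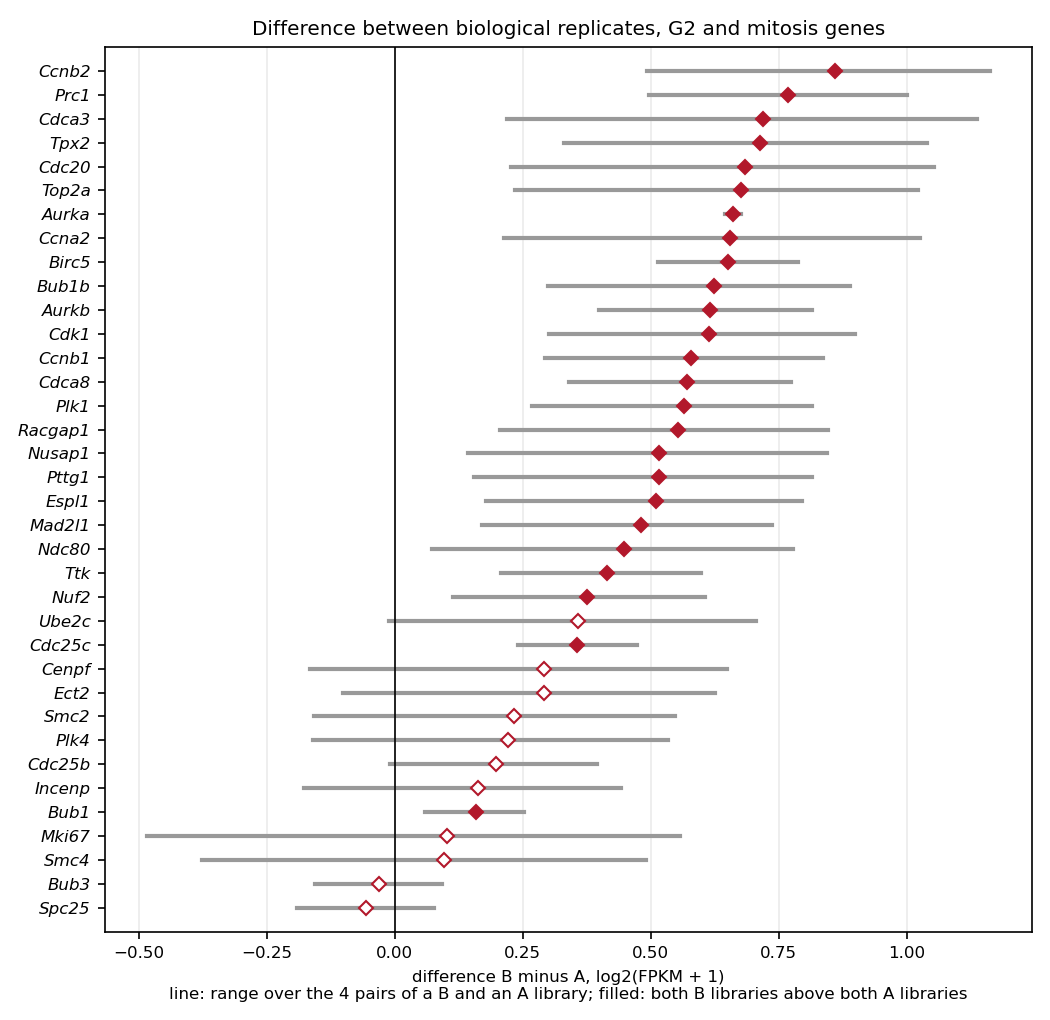
Difference B minus A on the log2(FPKM + 1) scale for each of the 36 genes (diamonds), with a line over the 4 pairs of a B and an A library and filled diamonds where both B libraries were above both A libraries. The diamonds run from 0.86 for *Ccnb2* to -0.06 for *Spc25*, and 25 of 36 are filled.

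The largest differences were in genes of several roles. *Ccnb2*, with the doubt about its locus given above, differed by 0.86, *Prc1* by 0.77, *Cdca3* by 0.72, *Tpx2* by 0.71, *Cdc20* by 0.68 and *Top2a* by 0.68. By role, the median difference was 0.60 for CDK1, its cyclins and phosphatases, with 5 of 6 higher in B without overlap, where all expressed genes gave 28.1%. It was 0.59 for the passenger complex (3 of 4), 0.56 for the spindle and centrosome group (4 of 5), 0.55 for cytokinesis (2 of 3) and 0.52 for proteolysis (4 of 5). The checkpoint genes had a median of 0.41 (4 of 5) and the kinetochore genes 0.33 (2 of 4), and chromosome structure was lowest at 0.17, where *Top2a* was the 1 gene of 4 without overlap. The 11 genes whose libraries overlapped were *Cdc25b*, *Plk4*, *Incenp*, *Bub3*, *Spc25*, *Cenpf*, *Ube2c*, *Mki67*, *Smc2*, *Smc4* and *Ect2*. *Bub3* (-0.03) and *Spc25* (-0.06) were the only members with a negative difference.

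The difference between replicates was set beside the presence of a CHR in the promoter window. The 21 listed members with a CHR had a median B minus A of 0.52, with 15 of 21 higher in B without overlap, and the 9 without had 0.41, with 6 of 9, where all expressed genes gave 28.1%. Without *Ccnb2*, whose promoter and measured locus are on different chromosomes, the 20 with a CHR had a median of 0.52, with 14 of 20. The split depends on the window: with 50 bases after the start included, *Bub3*, *Cdca3* and *Cdc25b* were the 3 of 30 without a CHR, and the other 27 had a median of 0.51. A link between the motif and the difference was not tested.

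A large part of the difference rested on library B2, the shallowest. Within replicate B, B2 was above B1 for 35 of 36 members, against 49.1% of the 10481 genes, and the median difference B2 minus B1 was 0.54. Within replicate A, A2 was above A1 for 24 of 36 members, against 57.9% of the 10481 genes, and the median of 0.04 was close to the 0.03 of those genes. Against the mean of A, the members had a median of 0.22 in B1 and 0.72 in B2, while the medians over all 10481 genes were -0.02 and -0.04. B1 alone was above both A libraries for 25 of 36 members (40.2% of all genes) and B2 alone for 34 of 36 (40.3% of all genes). The summed TPM of the members gave 790 and 791 in the libraries of A, 862 in B1 and 1205 in B2.

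The 5 members with the largest technical differences were *Mki67* (0.89 between B2 and B1), *Cenpf* (0.77), *Top2a* (0.75), *Cdc20* (0.72) and *Cdca3* (0.72). For each of the 5 this exceeded the difference between the replicates, by little for *Cdca3* (0.72) and *Cdc20* (0.68) and most for *Mki67* (0.10). Over all members, B2 minus B1 was larger than B minus A for 22 of 36, against 49.6% of the 10481 genes. With B1 alone standing for B, *Mki67*, *Smc4*, *Incenp*, *Cenpf*, *Smc2*, *Plk4*, *Spc25* and *Ect2* were below the mean of A. With B2 alone, *Ccnb2*, *Cdca3*, *Top2a* and *Cdc20* passed a difference of 1. *Aurka* and *Birc5* moved little between the libraries of B, by 0.01 and 0.13, and *Bub3* was the 1 member lower in B2. Depth moved with this pattern, since B2 had the lowest coverage, and its part in the result was not tested. Coverage of the members in B2 ran from 14.1 to 535. The summed level of the mesenchymal and meningeal markers was also higher in B2 (4877 FPKM) than in B1 (3523 FPKM), and that of the radial glia markers was 11212 and 10510 FPKM (5727 and 3991 FPKM without *Fabp7*). Most of the sum without *Fabp7* was *Vim*, at 4458 FPKM in B2 and 2652 FPKM in B1.

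**Figure D4:**
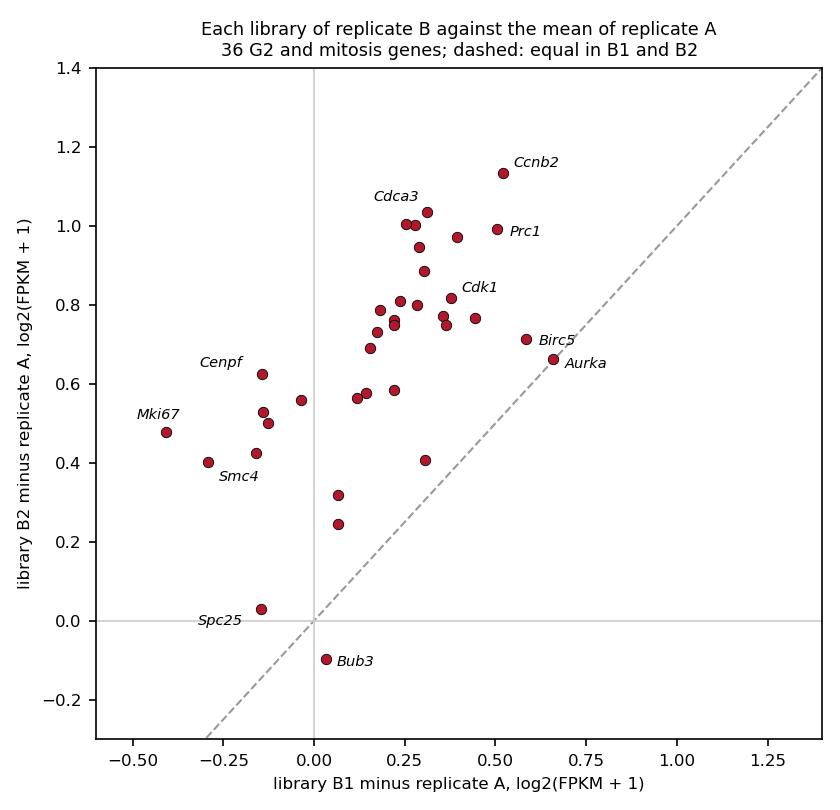
Difference of library B1 (horizontal) and of library B2 (vertical) from the mean of replicate A on the log2(FPKM + 1) scale for the 36 genes, with a dashed line where both are equal. All genes but *Bub3* lie above the dashed line, and *Aurka* lies almost on it.

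Other genes of the cell cycle were read in the same way. Of 71 other G2 and mitosis genes, 61 were listed, all at a mean of 1 FPKM or more. Of these, 38 were higher in B without overlap and 2 were higher in A, against 28.1% and 32.0% of all expressed genes. Their median difference was 0.37, with 0.15 without B2 and 0.58 without B1. *Ube2s*, which extends ubiquitin chains for the anaphase-promoting complex, had the highest level at 266 ± 10.4 FPKM and *Cdca5* (sororin) the lowest at 1.09 ± 0.330 FPKM. *Cenpa*, the histone variant of centromeres, had the largest difference (1.12), from 2.10 and 2.11 FPKM in A to 5.02 and 6.51 FPKM in B. *Dsn1*, of the MIS12 complex, had the lowest (-0.30). Among 36 DNA replication genes the median was 0.27 (0.14 without B2), with 21 higher in B and 3 higher in A, and the extremes were *Tk1* (0.83) and *Gins2* (-0.33). *Pcna*, the highest of them at 132 ± 7.10 FPKM, overlapped between replicates, and *Orc1* was lowest at 1.19 ± 0.205 FPKM.

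For 2 lists of regulators the median difference was close to 0 or towards A. Subunits of the anaphase-promoting complex, the ligase that *Cdc20* and *Ube2c* serve, had a median of 0.04 over 14 genes (0.09 without B1, 0.06 without A1 and -0.01 in TPM), with 6 of 14 higher in B and 2 higher in A without overlap. They ran from *Anapc10* (0.30) to *Anapc1* (-0.15), with levels from 5.95 FPKM for *Cdc27* to 183 FPKM for *Anapc13*. Transcription factors of the DREAM and FOXM1 network had a median of -0.12 over 15 genes (-0.08 without B2), with 1 higher in B and 7 higher in A without overlap, where all expressed genes gave 28.1% and 32.0%. The 1 was *Mybl2* (0.37), the MuvB partner in S and G2 phase, and the lowest difference was that of the retinoblastoma gene *Rb1* (-1.13), with 29.6 and 32.0 FPKM in A and 13.2 and 13.9 FPKM in B. *Rbbp4* had the highest level, 119 ± 2.47 FPKM, and *E2f7* the lowest, 1.14 ± 0.167 FPKM.

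**Figure D5:**
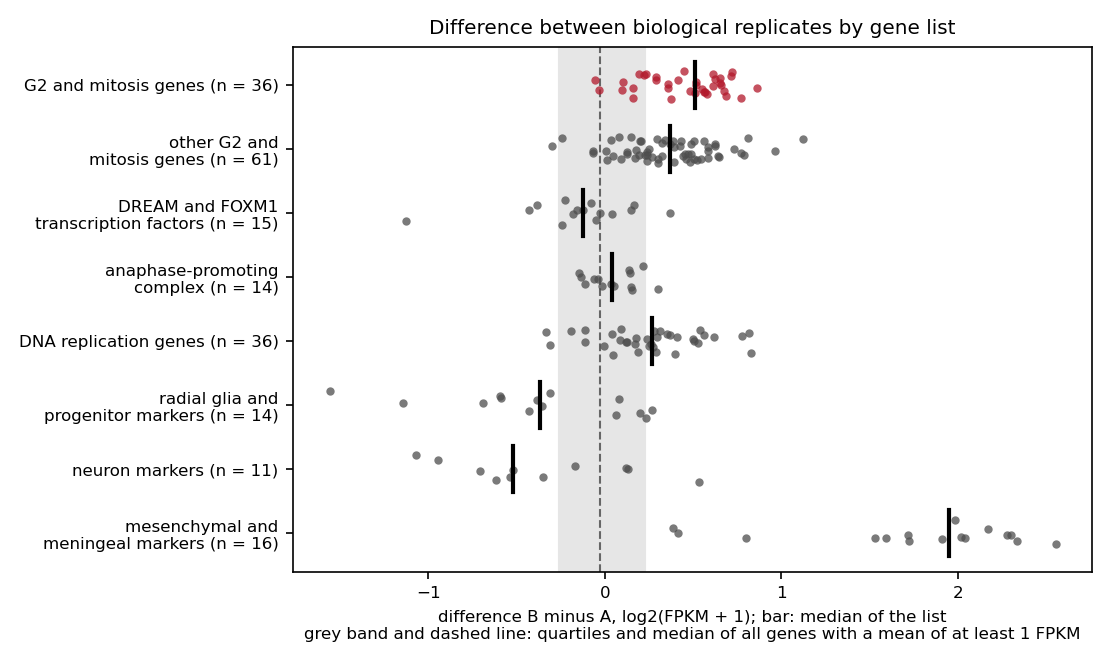
Difference B minus A on the log2(FPKM + 1) scale for the G2 and mitosis genes and 7 other lists (points are expressed genes, mean FPKM 1 or higher, and bars are medians), with a grey band for the quartiles of all such genes (-0.26 to 0.23). The bar of the G2 and mitosis genes stands at 0.51 and that of the mesenchymal and meningeal markers at 1.95.

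Markers of other cells moved with replicate B. All 16 mesenchymal and meningeal markers had at least 1 FPKM, 15 of 16 were higher in B without overlap (28.1% of all expressed genes) and 13 by at least 1 (4.78%), and their median difference was 1.95. Their summed level was 1471 and 1557 FPKM in the libraries of A, below both libraries of B. *Pdgfra* had the largest difference (2.55), *Prrx1* the smallest (0.39), *Tagln* the highest level (868 ± 175 FPKM) and *Foxd1* the lowest (7.02 ± 6.05 FPKM). Markers of the labelled cell type were found in every library. All 14 radial glia and progenitor markers had a mean of at least 1 FPKM, although *Gli3* had 0.957 FPKM in B1. Of these markers 8 were higher in A without overlap (32.0% of all expressed genes) and 0 higher in B, with a median of -0.37 (-0.18 without B1). They ran from *Fabp7*, the highest at 11840 ± 8256 FPKM and the lowest in B relative to A (-1.56), to *Gli3* at 1.72 ± 0.509 FPKM, and *Prom1* had the largest difference towards B (0.27). Their summed level was 21559 and 23659 FPKM in A, above both libraries of B, but *Fabp7* carried this. The other 13 markers summed to 4759 and 5102 FPKM in A1 and A2 and to 3991 and 5727 FPKM in B1 and B2. B2 was then highest, but *Vim* carried this in turn, with 2882, 3171, 2652 and 4458 FPKM in A1, A2, B1 and B2.

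Of 18 listed neuron markers 11 had a mean of at least 1 FPKM, with a median difference of -0.52 from *Elavl3* (0.53) to *Elavl4* (-1.07). Without overlap, 7 of 11 were higher in A and 1 was higher in B, against 32.0% and 28.1% of all expressed genes. The median of those at 10 FPKM or more was 0.12. *Tubb3* was highest at 118 ± 9.88 FPKM and *Bcl11b* lowest of the 11 at 1.34 ± 1.05 FPKM. Microglia and endothelial markers were close to 0, with 0 of 10 at a mean of 1 FPKM, a summed level of 1.26 to 5.56 FPKM, *Flt1* highest at 0.914 ± 0.915 FPKM, *P2ry12* at 0.0559 ± 0.0367 FPKM, and *Cx3cr1* listed at 0 in 3 of the 4 libraries.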

How the data were processed

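PolyA mRNA of 2 biological replicates (A and B) was sequenced as 2 technical libraries each, grouped by the sample labels. The Start-seq samples (2) were not used here. Reads had been aligned by the authors to rn6 with STAR, and the submitters' processing notes also name cutadapt, HISAT and StringTie, without versions. The methods name Rsubread and a further R package for expression levels, while the tables have the StringTie layout. The deposited FPKM is scaled to transcript length and library depth and was used as deposited. The deposited TPM sums to 1000000 per library and served as an alternative. The deposited coverage is mean read depth over a gene and was used for depth alone. Strand use in the counting is not given in the sources used here. Total read counts were not used, so no counting intervals are given.

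FPKM was summed per gene name over 17337 names. Technical libraries were averaged within replicates (n = 2), and differences were taken on log2(FPKM + 1). A gene was counted as higher in one replicate when its 2 libraries were above both of the other, among genes whose mean FPKM was 1 or higher. A further rule required a difference of at least 1. The code was run on simulated data to see that changes put in were recovered. That run does not show how often the rules would be met in these libraries without a true difference. Alternatives were TPM, a pseudocount of 0.1, scaling by median ratios, other filters and thresholds, and leaving out libraries or replicates. Symbols not listed were sought among RefSeq synonyms, which matched 2 (*Knl1* and *Sgo2*). Named are all members, with single-library values for the highest and lowest of each role and those with the 5 largest technical differences, and from the other lists the highest, the lowest and both extremes of B minus A. Members and lists were chosen with earlier results of these data known. Promoters came from the RefSeq table of GRCr8. Python 3.11.15, pandas 2.3.3, numpy 2.4.6 and matplotlib 3.10.9 were used.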

Additional observations from a re-analysis of the deposited data

Results flagged for a closer look

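A single library was sought whose gap to the nearest other library, divided by the range over the 4 libraries, was above Dixon's critical value for 4 samples. Of 68 values examined, 3 were found. In independent samples chance gives about 1 in 20, but these libraries are technical pairs.

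Depth was low in B2, with a coverage per FPKM of 6.83 against 22.7 to 24.4 in the others. *Mybl2* had 8.18 FPKM in B2 against 4.87 to 5.30 FPKM in the others, so its place as the transcription factor with the largest difference towards B rests on that library. *Cx3cr1* had 0.016 FPKM in B1 and was listed at 0 in the others. With all the others at 0, any value above 0 passes the limit, so this flag carries no information. None of the 36 G2 and mitosis genes passed the limit, and the nearest were *Cenpf* (0.828) and *Ect2* (0.824), both highest in B2. The summed TPM of the members, also highest in B2, reached 0.827.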

How the results depend on the processing

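With 1 library left out at a time, the median B minus A of the members ranged from 0.22 (without B2) to 0.72 (without B1), members higher in B without overlap from 25 to 34, those higher in A from 1 to 7, and those at least 1 higher in B from 0 to 4, while the shares over all genes ranged from 33.2% to 40.7%, from 39.4% to 47.4% and from 3.67% to 6.35%. In the same settings the median ranged from 0.15 to 0.58 for the other G2 and mitosis genes, from -0.15 to -0.0793 for the transcription factors, from 0.0431 to 0.0896 for the anaphase-promoting complex, from 0.14 to 0.35 for replication genes, from -0.46 to -0.18 for radial glia markers, from -0.58 to -0.41 for neuron markers and from 1.43 to 2.03 for mesenchymal markers. In TPM the members' median level was 19.5 TPM, 1 member (*Bub3*) was higher in A (37.1% of all genes), and the medians were -0.18 for the transcription factors and -0.00615 for the anaphase-promoting complex, whose sign reversed. Median ratio scaling gave 0.0685 for that complex. Neuron markers had -0.13 with no filter and reversed to 0.12 at a mean of at least 10 FPKM, a filter that left 21 members, 15 of them higher in B (27.4% of all genes so filtered). At a difference of 0.58 the count was 12, against 9.51% of all genes. The cause was not tested. With 1 biological replicate left out, the members' median level ranged from 9.64 to 12.5 FPKM. Single members changed the sign of their difference in 10 of 252 alternatives, 8 of them without B2. Promoters with a CHR numbered 31 of 34 in place of 24 when 50 bases after the start were added, against 28.2% of all promoters and 18.0% of those of expressed genes in that window. No paired analysis was possible because there is 1 condition and the replicates themselves are compared.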
